A study of Arabidopsis thaliana with 12 samples.

Results

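AT2G41730, AT2G32020 and AT2G03130 are 3 protein-coding genes on chromosome 2 of Arabidopsis thaliana, known in the annotation only by their locus names. They were followed here through heat in an msh1 recA3 double mutant and in the Col-0 wild type. Each had 1 probe set assigned to it alone, so 3 of the 22746 probe sets and 3 of the 13356 singly assigned genes are described. They were chosen by their signal on the untreated arrays, which was far higher in double mutant than in wild-type plants. That difference is therefore given as a description and was not tested. The annotation gives no product for any of them, so no function is stated.

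Total RNA of above-ground tissue, from plants aged 8 weeks, was hybridised to Affymetrix arrays. The groups were heated double mutant (msh1/msh1-recA3/recA3, Col-0 background, 37 °C, n = 3), untreated double mutant (24 °C, n = 4), heated wild type (Col-0, 37 °C, n = 3) and untreated wild type (24 °C, n = 2). Sources differ on the duration of heating, 2 h in the study's design and the source names of the samples and about 24 h in the treatment protocol. Neither could be preferred. Arrays are called biological replicates in the labels, which do not say how many plants went into each. The labels name no allele of either gene beyond msh1 and recA3.

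MSH1 and RECA3 are nuclear genes whose proteins act on organelle DNA, MSH1 in mitochondria and plastids and RECA3 in mitochondria. Together they limit recombination between repeats of the mitochondrial genome, and plants without both carry a rearranged mitochondrial genome. Plant cells answer disturbed mitochondria by changing nuclear transcription, which is called retrograde signalling. Typical nuclear genes of that response include those for alternative NAD(P)H dehydrogenases, which feed electrons into the respiratory chain without passing through complex I.

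All values are log2 RMA signals, so a difference of 1 is a 2-fold change. Probes differ in how brightly they bind, so the share of probe sets below a signal only places it on its array and is no comparison of transcript amounts. The lower quartile of all probe sets, a mark for dim signals, lay between 3.67 and 3.79 on the 12 arrays. Heated and untreated arrays separated on the first principal component (71.1% of the variance). On the second (10.2%), heated double mutant replicate 3 scored 8.73, between the other heated double mutants (-22.5 and -26.8) and the heated wild type (13.5 to 16.3), so the main results that use it are also given without it. The untreated double mutant was split on the same component, with replicates 1 and 2 at -2.95 and -0.964 and replicates 3 and 4 at -22.9 and -30.9. Green tissue was evident from RCA and LHCB4.1, 2 of 6 listed markers measured, with group means of 13.07 to 13.79. By limma RCA was higher in the untreated double mutant than in the untreated wild type by 0.46 ± 0.09 (SE, adjusted p = 0.0291) and rose by 0.32 ± 0.10 with heat in the wild type (SE, adjusted p = 0.0312). LHCB4.1 fell by 0.23 ± 0.07 with heat in the double mutant (SE, adjusted p = 0.0173), but not with arrays centred on reference genes, with the replicate number as a block or without heated double mutant replicate 1 (adjusted p = 0.539, 0.0633 and 0.0622). Both RCA calls ended under several alternatives, among them quantile normalization (adjusted p = 0.497 and 0.679) and leaving out untreated wild-type replicate 1 (adjusted p = 0.223 and 0.298), and their part in the results of the 3 genes was not tested. Neither MSH1 nor RECA3 had a probe set assigned to it alone, so the genotype labels were not checked on the mutated genes.

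Without heat, all 3 genes were higher in the double mutant, as the choice of genes required. AT2G41730 averaged 10.30 ± 0.08 (SD, n = 4) in the untreated double mutant and 6.05 ± 0.36 (SD, n = 2) in the untreated wild type. AT2G32020 averaged 6.97 ± 0.24 (SD, n = 4) in the untreated double mutant and 4.64 ± 0.07 (SD, n = 2) in the untreated wild type. AT2G03130 averaged 5.77 ± 0.26 (SD, n = 4) in the untreated double mutant and 3.67 ± 0.10 (SD, n = 2) in the untreated wild type. For each gene every untreated double mutant array lay above both untreated wild-type arrays, as it did for 19.5% of all probe sets. The differences of 4.24 (AT2G41730) and 2.32 (AT2G32020) ranked 3 and 16, and that of AT2G03130, 2.10 against a wild type near the lower quartile, ranked 22 from the top of all 22746 probe sets, of which 2.23% were called higher in this comparison by limma at an adjusted p under 0.05. In RNA of whole tissue, fewer cells of a type and less RNA per cell cannot be told apart.

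**Figure D1:**
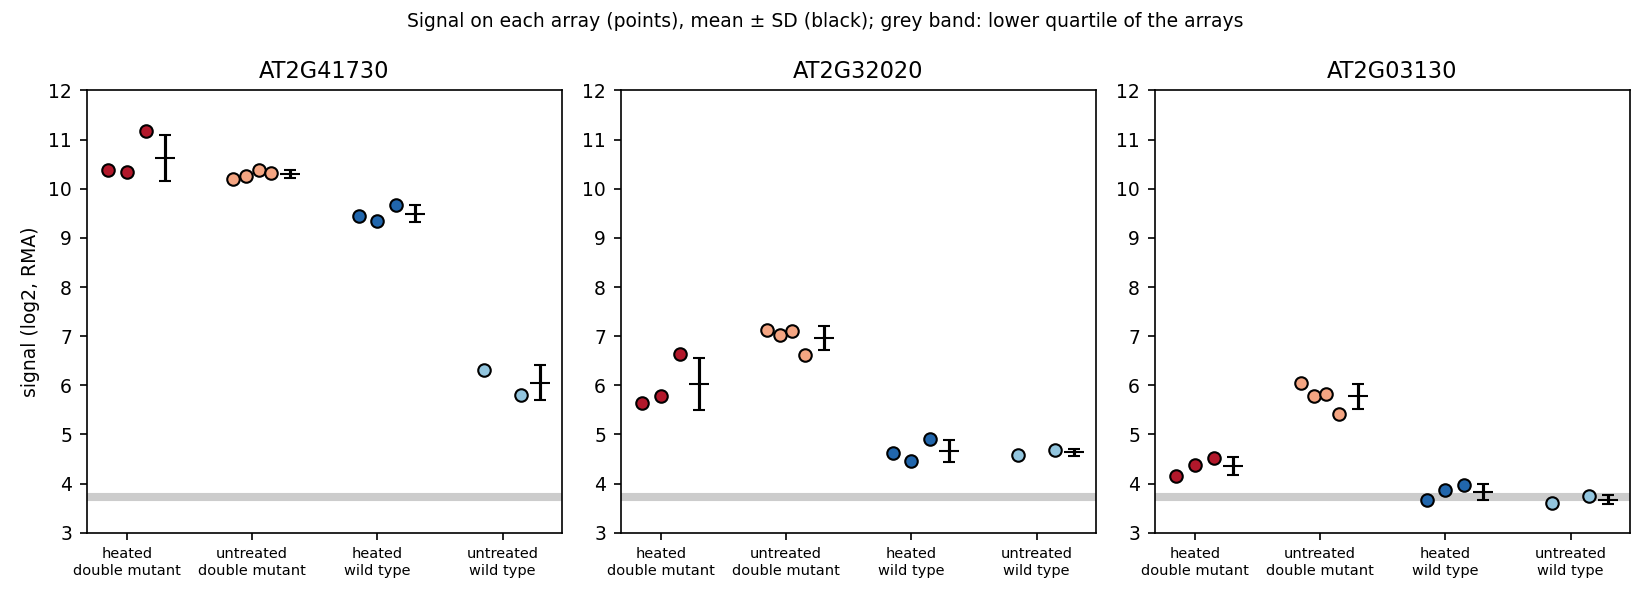
Log2 RMA signal of AT2G41730, AT2G32020 and AT2G03130 on each of the 12 arrays (points) with the mean and SD of each group (black), and the range of the arrays' lower quartiles as a grey band. Heated wild-type arrays stood well above untreated ones for AT2G41730, by a mean of 3.44, and overlapped them for the other 2 genes.

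AT2G41730 was far higher in 3 of the groups than in the untreated wild type. Its signals were 10.38, 10.35 and 11.17 in the heated double mutant, and 10.20, 10.26, 10.39 and 10.33 in the untreated double mutant. In the heated wild type they were 9.45, 9.35 and 9.68, and in the untreated wild type 6.31 and 5.80. The untreated wild-type arrays were lowest, though above the median probe set, with 64.5% and 58.3% of probe sets below them, against 92.9% to 98.4% on the other 10 arrays.

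Heat went with a large difference of AT2G41730 in the wild type and a small one in the double mutant. In the double mutant, heated minus untreated arrays gave 0.34 ± 0.19 (SE), and the groups overlapped. Without heated double mutant replicate 3 this difference was 0.07, and with arrays centred on 4 reference genes it was 0.63. Of those 4, AT2G28390 and AT5G46630 themselves differed by -0.71 and -0.45 with heat in the double mutant. The centring shifted the median heat difference of all probe sets there by 0.296. In the wild type the heated arrays lay above both untreated ones by 3.44 ± 0.23 (SE), a ratio of 10.8 (95% interval 7.64 to 15.4). Heated arrays also lay wholly above untreated ones for 27% of all probe sets in the wild type and for 17% in the double mutant. The heat response of the double mutant minus that of the wild type was -3.10 ± 0.30 (SE), the lowest of all 22746 probe sets, and -3.37 without heated double mutant replicate 3. With each untreated double mutant array left out in turn, heat in the double mutant gave 0.31 to 0.37. The untreated arrays that enter these differences also chose the gene, so none of them was tested. The difference of the responses equals the heated genotype difference minus the untreated one. A low rank can thus follow from the choice of a gene with a large untreated difference.

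The probe set of AT2G41730 carries the suffix (_x_at) that Affymetrix gave to sets with probes that can also match other transcripts. Its signal may therefore include RNA from another gene, which was not tested.

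AT2G32020 showed no such difference with heat in the wild type. Its signals were 5.65, 5.79 and 6.63 in the heated double mutant, and 7.13, 7.02, 7.10 and 6.62 in the untreated double mutant. They were 4.62, 4.47 and 4.90 in the heated wild type, and 4.59 and 4.69 in the untreated wild type. The 5 wild-type arrays had 42.4% to 48.2% of probe sets below them, and all 7 double mutant arrays were higher than any of them. The untreated arrays among these chose the gene. Such a separation held for 19.5% of all probe sets between untreated arrays and 7.04% between heated ones, and was not counted over both.

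Within the double mutant, the mean of the heated arrays of AT2G32020 was lower than that of the untreated ones, a difference of -0.94 ± 0.22 (SE). The groups just overlapped, since heated replicate 3 (6.63) and untreated replicate 4 (6.62) met. Without that heated array the difference was -1.25. In the wild type the difference with heat was 0.02 ± 0.26 (SE, 95% interval -0.55 to 0.59), and the groups overlapped. The double mutant's heat response minus the wild type's was -0.96 ± 0.34 (SE), which ranked 156 from the bottom of all probe sets, and it was -1.27 without heated double mutant replicate 3. With each untreated double mutant array left out in turn, heat in the double mutant gave -1.06 to -0.89. As for AT2G41730, these differences were not tested, and the low rank can follow from the choice of the gene.

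AT2G03130 stood furthest above the arrays' lower quartile in the untreated double mutant. Its signals were 4.15, 4.38 and 4.52 in the heated double mutant, and 6.06, 5.79, 5.83 and 5.42 in the untreated double mutant. They were 3.66, 3.87 and 3.98 in the heated wild type, and 3.60 and 3.74 in the untreated wild type. The wild-type arrays sat at or close to the lower quartile, with 20.1% to 31.1% of probe sets below them, and whether that signal exceeded background was not tested. The heated double mutant lay only slightly above, with 36.9% to 43.2% of probe sets below.

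In the double mutant, every heated array of AT2G03130 lay below every untreated one, by a mean difference of -1.42 ± 0.14 (SE). Groups separated in this direction for 21.3% of all probe sets. In the wild type the difference was 0.16 ± 0.17 (SE), and the groups overlapped. The response of the double mutant minus that of the wild type was -1.58 ± 0.23 (SE). Without heated double mutant replicate 3 heat in the double mutant gave -1.505 and the difference of the responses -1.67. With each untreated double mutant array left out in turn, heat in the double mutant gave -1.54 to -1.33. The differences of AT2G03130 that involve the wild type rest on those dim signals. No test was made of these differences, for the same reason.

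PYK10, the ER body beta-glucosidase used here as the measured root marker (1 of 3 listed), was likewise highest in the untreated double mutant. It ranged from 6.38 to 6.71 in the heated double mutant and from 7.47 to 8.88 in the untreated double mutant. In the wild type it ranged from 5.94 to 6.51 in heated plants and from 6.38 to 6.82 in untreated plants. By limma PYK10 was higher in the untreated double mutant than in the untreated wild type by 1.72 ± 0.33 (SE, adjusted p = 0.0234) and fell by 1.73 ± 0.29 with heat in the double mutant (SE, adjusted p = 0.000699). That heat difference was -1.78 without heated double mutant replicate 3 (adjusted p = 0.00206). The call between untreated genotypes ended without either untreated wild-type array or untreated double mutant replicate 4 (adjusted p up to 0.172) and with the replicate number as a block (adjusted p = 0.134). The part of PYK10 in the values of AT2G03130 and AT2G32020 was not tested.

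**Figure D2:**
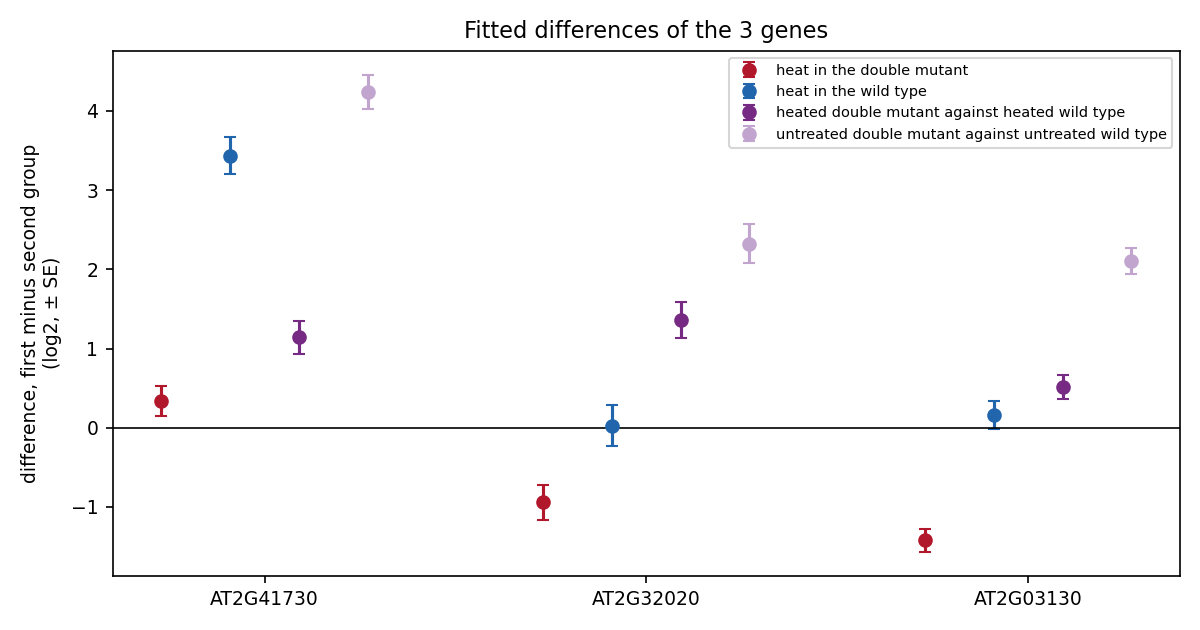
Fitted log2 differences with their SE for each of the 3 genes, first-named group minus second. Heat in the double mutant gave 0.34, -0.94 and -1.42 for AT2G41730, AT2G32020 and AT2G03130, while heat in the wild type gave 3.44, 0.02 and 0.16.

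AT2G32020 and AT2G03130 shared one order of group means, with the untreated double mutant highest, then the heated double mutant, the heated wild type and the untreated wild type. The order of AT2G41730 differed from it only in the double mutant groups, which overlapped. For AT2G41730 the heated and untreated double mutant overlapped, the untreated double mutant exceeded the heated wild type by 0.80 without overlap, and the untreated wild type was lowest. For AT2G32020 the heated double mutant lay 1.36 above the heated wild type, and the heated and untreated wild type were 0.02 apart and overlapped. For AT2G03130 the heated double mutant was 0.51 above the heated wild type without overlap, and the heated and untreated wild type overlapped.

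After heat, the genotype difference could be tested, because no heated array took part in choosing the genes. The spread behind the SE and p of limma was shared by all 12 arrays, including the untreated ones that chose the genes. A fit of only the heated arrays was used for the count of called probe sets and not for the 3 genes. The question was whether plants of the double mutant still differed from the wild type once both had been heated. Two-sided tests by limma called 2 of the 3 genes higher, against 0.497% of all probe sets called higher and 0.897% called in either direction. AT2G32020 averaged 6.02 ± 0.53 (SD, n = 3) in the heated double mutant and 4.66 ± 0.22 (SD, n = 3) in the heated wild type. The difference was 1.36 ± 0.23 (SE, limma adjusted p = 0.0229), a ratio of 2.57 (95% interval 1.80 to 3.65). AT2G41730 averaged 10.63 ± 0.46 (SD, n = 3) in the heated double mutant and 9.49 ± 0.17 (SD, n = 3) in the heated wild type. Its difference was 1.14 ± 0.20 (SE, limma adjusted p = 0.0271), a ratio of 2.20 (95% interval 1.61 to 3.01).

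AT2G03130 did not pass after heat. It averaged 4.35 ± 0.18 (SD, n = 3) in the heated double mutant and 3.84 ± 0.16 (SD, n = 3) in the heated wild type, a difference of 0.51 ± 0.15 (SE, limma adjusted p = 0.172, 95% interval 0.17 to 0.85). For all 3 genes each heated double mutant array lay above each heated wild-type array, as it did for 7.04% of probe sets. An exact two-sided permutation test of each gene alone gave p = 0.1, the smallest that 3 arrays against 3 allow. The differences ranked 29 (AT2G32020) and 59 (AT2G41730) from the top of all probe sets.

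Heated double mutant replicate 3 was the highest of its group for each gene. Without it the limma differences were 1.05 for AT2G32020 (adjusted p = 0.00783), 0.87 for AT2G41730 (adjusted p = 0.0107) and 0.43 for AT2G03130 (adjusted p = 0.192), so the same 2 genes passed. The number of probe sets called in this comparison was 204 with that array and 1061 without it. Leaving out another heated array ended the call of AT2G41730 each time, for wild-type replicates 1, 2 and 3 (adjusted p = 0.133, 0.0898 and 0.0565) and for double mutant replicates 1 and 2 (adjusted p = 0.0508 and 0.054). The call of AT2G32020 ended without heated wild-type replicate 1 or 2 (adjusted p = 0.112 and 0.0774) or heated double mutant replicate 2 (adjusted p = 0.0592).

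**Figure D3:**
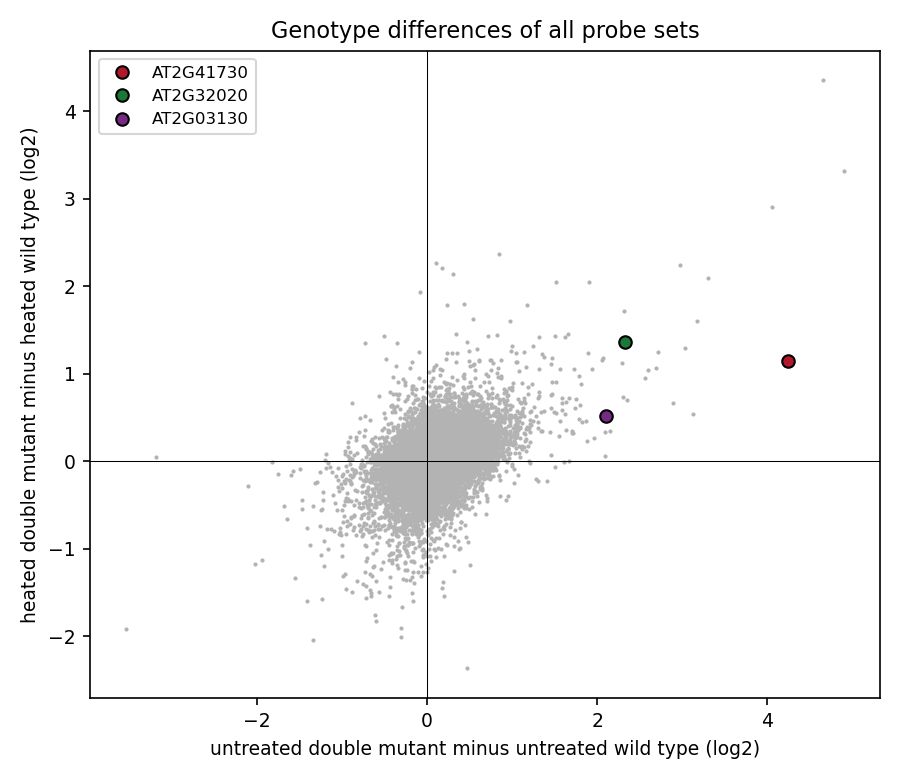
For each of the 22746 probe sets, the log2 difference of untreated double mutant minus untreated wild type (x axis) against that of heated double mutant minus heated wild type (y axis), with the 3 genes coloured. AT2G41730 stood at 4.24 and 1.14, AT2G32020 at 2.32 and 1.36, and AT2G03130 at 2.10 and 0.51.

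The genotype difference was smaller after heat than before it for each gene, 1.14 against 4.24 for AT2G41730, 1.36 against 2.32 for AT2G32020 and 0.51 against 2.10 for AT2G03130, whose wild-type values were both near the lower quartile. The genes were chosen for a large untreated difference, so a smaller one on other arrays can follow from the choice alone, which was not tested. The groups behind the smaller differences were not the same. For AT2G41730 the heated wild type came up towards the double mutant, whereas for AT2G32020 and AT2G03130 the heated double mutant came down towards the wild type. Over the whole table, 507 probe sets were called higher in the untreated double mutant and 113 in the heated double mutant. These lists shared 53 probe sets, 10.5% of the untreated list and 46.9% of the heated list. The means compared had no array in common, but both lists used the same spread, estimated from all 12 arrays, so they are not independent. AT2G41730 and AT2G32020 were among the heated 113 and AT2G03130 was not.

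Among themselves, AT2G32020 and AT2G03130 were alike and AT2G41730 stood apart. After centring each probe set on its mean over the 12 arrays, the root mean square difference was 0.36 on the log2 scale between AT2G32020 and AT2G03130. It was 1.22 between AT2G41730 and AT2G32020 and 1.34 between AT2G41730 and AT2G03130.

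By the same measure over 12 arrays, NDB4 (0.37) and NDB3 (0.40), both alternative NAD(P)H dehydrogenases, were the closest other genes to AT2G32020, before AT5G14730 (0.49), AT3G61100 (0.54) and the jacalin-related lectin JAL23 (0.55). For AT2G03130 they were NDB3 (0.37), NDB4 (0.38), AT1G03660 (0.39), AT5G14730 (0.44) and the jacalin-related lectin JAL33 (0.45). NDB3, NDB4 and AT5G14730 thus appeared for both. NDB4 averaged 5.30 in the heated double mutant, 6.81 in the untreated double mutant, 4.23 in the heated wild type and 4.11 in the untreated wild type, with its high level in untreated mutants and its low level in both wild-type groups.

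The closest gene to AT2G41730 was AT2G21640 at 0.61, followed by AT5G43450 (0.93), AT3G49320 (0.95), AT2G20720 (1.00) and AT1G24095 (1.01). AT2G21640 had signals of 11.11, 10.95 and 11.63 in the heated double mutant and 9.84, 9.85, 10.16 and 10.03 in the untreated double mutant. It had 10.41, 10.55 and 10.74 in the heated wild type and 7.07 and 7.07 in the untreated wild type. As with AT2G41730, the untreated wild-type arrays alone lay far below the other groups, though 74.25% and 74.34% of probe sets lay below them for AT2G21640. Unlike AT2G41730, each heated double mutant array of AT2G21640 lay above each untreated one. The other 4 genes had heat differences of 0.64 to 1.45 in the wild type, smaller than the 3.44 of AT2G41730. All of these genes were picked for likeness over the same arrays, so the likeness is a description.

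**Figure D4:**
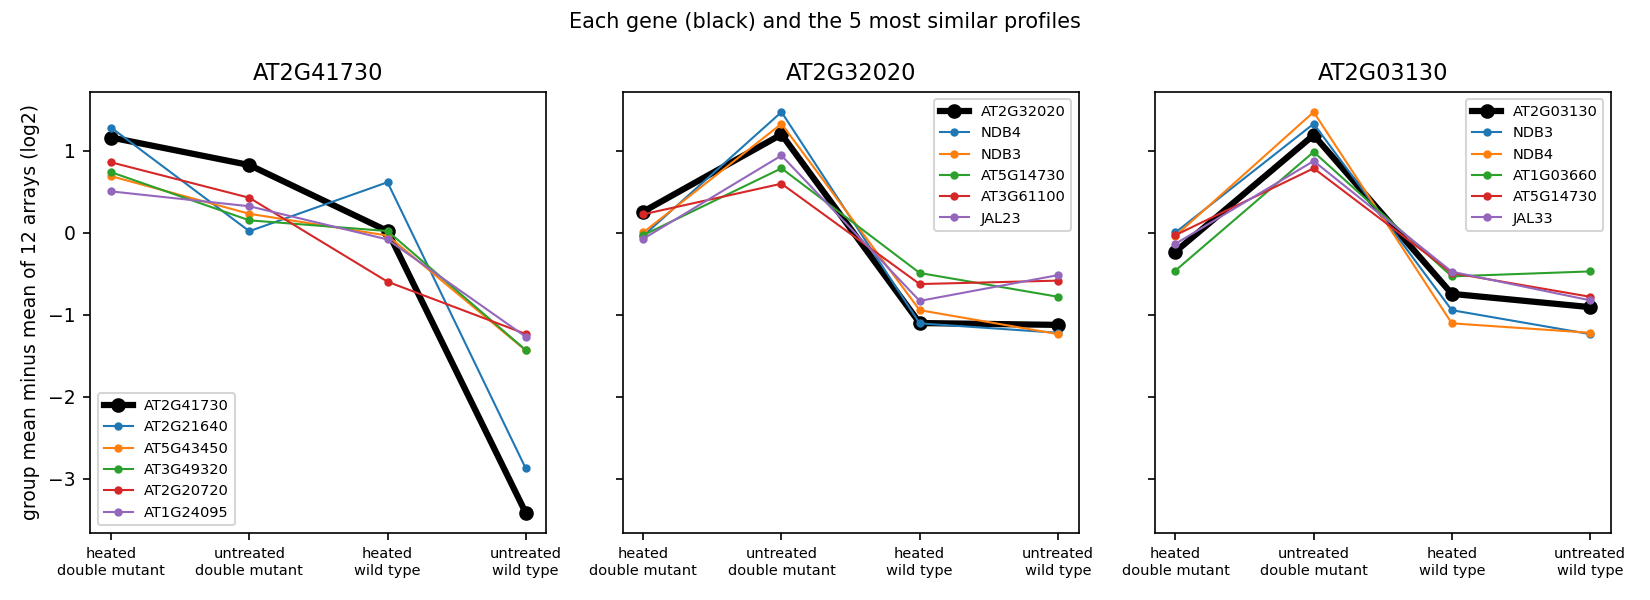
Group means minus the mean of the 12 arrays (log2) for each of the 3 genes (black) and the 5 genes with the smallest root mean square difference from it (coloured). AT2G32020 and AT2G03130 share a peak in the untreated double mutant with NDB3 and NDB4. AT2G41730 and AT2G21640 share an untreated wild type far below their other groups.

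Listed genes of the mitochondrial stress response gave a frame for these values, with 7 of 18 loci measured by a probe set of their own. The lists were drawn up with earlier results of these data known, so their counts are not independent evidence of a direction. After heat, 3 of the 7 were called higher in the double mutant than in the wild type and none lower, against 0.497% of all probe sets called higher, with a median difference of 0.67 against 0.00 over all probe sets. These were AT5G09570 by 4.36 ± 0.14 (SE, limma adjusted p = 4.75e-08) and the pair AT2G04050 and AT2G04070 by 3.32 ± 0.21 and 1.29 ± 0.21 (SE, limma adjusted p = 6.63e-05 and 0.0169). The call of AT2G04070 ended without heated double mutant replicate 2 or any 1 heated wild-type array (adjusted p up to 0.0694). Without heat 5 of the 7 were called higher, against 2.23% of all probe sets, with a median of 2.89 against 0.02 over all probe sets. Heat raised 3 and lowered 2 of the 7 in the double mutant, where 13.8% of all probe sets were called higher and 20.2% lower. Heat raised 4 and lowered none in the wild type, and 13.7% of all probe sets were called higher. Without heated double mutant replicate 3, again 3 of the 7 were called higher between heated genotypes, with a median of 0.47.

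Among these listed genes, AT2G21640 had a heat response that differed between the genotypes. It rose by 1.26 ± 0.15 (SE, limma adjusted p = 6.83e-05) in the double mutant and by 3.49 ± 0.18 (SE, limma adjusted p = 1.10e-07) in the wild type. The difference of these responses was -2.23 ± 0.24 (SE, limma adjusted p = 0.00857), in a comparison with 0.0747% of probe sets called. This call ended without untreated wild-type replicate 1 or 2 (adjusted p = 0.0556 and 0.0532). Leaving out heated double mutant replicate 3 gave -2.43 (adjusted p = 0.000244), and the heat response in the double mutant was 1.06 (adjusted p = 7.2e-05). After heat its genotype difference was 0.67 ± 0.16 (SE, limma adjusted p = 0.0938).

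Of 7 alternative NAD(P)H dehydrogenase genes 5 were measured, and 1 was called higher in the heated double mutant than in the heated wild type, against 0.497% of all probe sets. NDB4 was higher by 1.07 ± 0.16 (SE, limma adjusted p = 0.0126), a call that ended without heated wild-type replicate 1 or heated double mutant replicate 2 (adjusted p = 0.0655 and 0.0592). NDB3 differed by 0.95 ± 0.21 (SE, limma adjusted p = 0.0607) and NDB2 by 0.27 ± 0.26 (SE, limma adjusted p = 0.768). The median of the 5 was 0.27. Without heated double mutant replicate 3 NDB3 passed as well (adjusted p = 0.0422), so 2 of 5 were called higher, with a median of 0.50. With heat in the double mutant 2 of the 5 fell, where 20.2% of all probe sets were called lower. NDB4 fell by 1.51 ± 0.15 (SE, limma adjusted p = 1.32e-05) and NDB3 fell by 1.32 ± 0.19 (SE, limma adjusted p = 0.000276). None of the 5 rose, where 13.8% of all probe sets were called higher, and with such a share this does not set them apart. Without heated double mutant replicate 3 NDB4 was at -1.53 (adjusted p = 6.2e-05) and NDB3 at -1.29 (adjusted p = 0.00123). With heat in the wild type 1 of 5 rose, against 13.7% of all probe sets, NDB2 by 0.96 ± 0.29 (SE, limma adjusted p = 0.0304), a call that ended without untreated replicate 2 or heated replicate 2 (adjusted p = 0.236 and 0.101) and after quantile normalization (adjusted p = 0.0543). NDB4 was also 1 of the 17 probe sets whose heat response differed between genotypes, by -1.62 ± 0.23 (SE, limma adjusted p = 0.0383), but the adjusted p was above 0.05 under 12 alternatives and reached 0.171 without untreated wild-type replicate 1.

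Only 2 of 13 listed low-oxygen genes were measured by a probe set of their own, and none of 7 listed regulators of mitochondrial retrograde signalling had a probe set assigned to it alone. Probe sets with several genes or no gene name were not searched for them. Of the 2, AT4G17260 was higher in the heated double mutant than in the heated wild type by 0.85 ± 0.15 (SE, limma adjusted p = 0.0256), but not with the replicate number as a block (adjusted p = 0.0787), nor without heated wild-type replicate 1 or 3 or heated double mutant replicate 1 or 2 (adjusted p up to 0.117). AT3G10040 differed by -0.04 ± 0.10 (SE, limma adjusted p = 0.933).

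The measured genes nearest the 3 loci had smaller genotype differences than the loci. The loci were chosen for a large untreated difference and their neighbours were not, so this contrast can follow from the choice alone. For each locus the nearest gene on either side with a probe set of its own was taken from the gene order of TAIR10.1. Annotated genes without one were passed over, 2 before and 3 after AT2G41730 and 1 before AT2G32020, so those were not seen. These 6 neighbours differed by -0.24 to 0.20 between the heated genotypes and by -0.04 to 0.30 between the untreated genotypes. By limma 0 of 6 passed in either comparison, where 0.897% (heated) and 2.69% (untreated) of all probe sets were called. With shares this low, 0 of 6 does not set the neighbours apart from other probe sets.

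AT2G32030, the next annotated gene after AT2G32020, averaged 4.02 ± 0.05 (SD, n = 3) in the heated double mutant and 3.87 ± 0.07 (SD, n = 3) in the heated wild type. It averaged 4.40 ± 0.04 (SD, n = 4) in the untreated double mutant and 4.22 ± 0.17 (SD, n = 2) in the untreated wild type. With heat it fell by 0.37 ± 0.08 in the double mutant (SE, limma adjusted p = 0.00276) and fell by 0.35 ± 0.09 in the wild type (SE, limma adjusted p = 0.0138). The call in the double mutant ended with arrays centred on reference genes (adjusted p = 0.444), and that in the wild type without untreated replicate 1 (adjusted p = 0.163). AT2G41760, the nearest measured gene after AT2G41730, fell by 0.85 ± 0.16 with heat in the double mutant (SE, limma adjusted p = 0.00165) and differed by -0.52 ± 0.19 in the wild type (SE, limma adjusted p = 0.0678). SPP, signal peptide peptidase, which directly precedes AT2G03130, averaged 9.24 ± 0.24 (SD, n = 3) in the heated double mutant and 9.47 ± 0.05 (SD, n = 3) in the heated wild type, and it passed in none of the 5 comparisons.

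**Figure D5:**
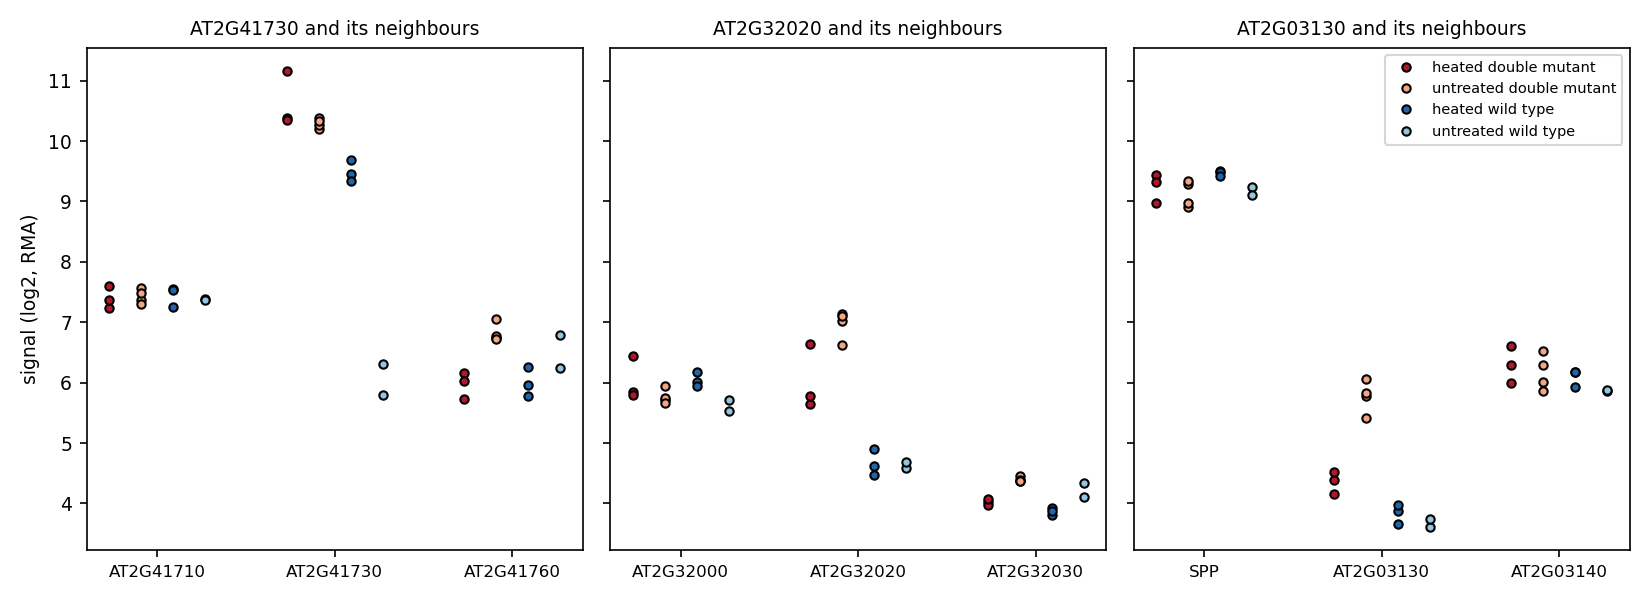
Log2 RMA signal on each array for the 3 genes (middle of each panel) and the nearest measured gene on either side in gene order. The 6 neighbours differed between heated genotypes by -0.24 to 0.20, against 1.14 for AT2G41730, 1.36 for AT2G32020 and 0.51 for AT2G03130. The 3 genes, unlike the neighbours, were chosen for a large untreated genotype difference.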

How the data were processed

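The deposited log2 signals of 22810 probe sets on 12 arrays were made by the authors with RMA in the affy package, per the submitters' processing notes. Versions and probe annotation are not given in the sources used here. RMA models background, equalises distributions and condenses probes, which compresses differences of dim probe sets. Leaving out 64 Affymetrix controls left 22746 probe sets, with a single gene for 13513, several genes for 503 and no gene for 8730. Symbols came from RefSeq (TAIR10.1) for 13436 of them. No coordinates are printed, because the build behind the probe annotation is not named.

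Group means were estimated together on all 12 arrays with limma (8 residual and 3.22 prior degrees of freedom, prior SD 0.145), with empirical Bayes moderation, two-sided tests and Benjamini-Hochberg adjustment over all probe sets at 0.05, for 5 comparisons. The method was tested on simulated data with independent normal noise. These held no array standing apart as heated double mutant replicate 3 does, so that test does not cover such arrays. Same-numbered arrays were not taken as pairs, since their residuals correlated from -0.348 to 0.266, with 3 of 15 pairs above 0.1.

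The 3 genes and all gene lists were chosen with earlier results of these data known. Genes named were the 3, the 3 of each list with the largest difference between heated genotypes, the 5 closest profiles and the nearest measured neighbours. A planned search for related proteins was not run. Lists were the mitochondrial stress response, alternative NAD(P)H dehydrogenases, retrograde regulators, low-oxygen genes, the mutated genes (0 of 2 measured), reference genes (4 of 6 measured), and green tissue, root, and flower and seed markers (0 of 4 of the last measured). By limma no reference gene differed between heated genotypes. With heat AT2G28390 fell by 0.71 in the double mutant (adjusted p = 9.99e-05) and fell by 0.43 in the wild type (adjusted p = 0.0119), AT5G46630 fell by 0.45 in the double mutant (adjusted p = 0.00398), and AT4G34270 rose by 0.32 in the wild type (adjusted p = 0.0388). The call of AT4G34270 held under only 6 of 18 alternatives, and the other calls of reference genes under 17 or 18. The number of arrays limits the precision. The fits used limma 3.58.1 in R 4.3.3, and the tables and plots used Python 3.11.15 with SciPy 1.17.1, NumPy 2.4.6, pandas 2.3.3 and matplotlib 3.10.9. Alternatives were reference gene centring, quantile normalization, a filter on dim probe sets, a replicate block, array weights, trended robust moderation, fits of only the groups compared, a minimum size and leaving out each array.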

Additional observations from a re-analysis of the deposited data

Results flagged for a closer look

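In the untreated double mutant, 1 array lay far from the other 3 for 3 of 39 genes checked, and chance gives about 1 in 20 such groups. AT2G41760, a neighbour of AT2G41730, was 7.05 on replicate 3, against 6.73 to 6.78 on the others. AT1G24095, whose profile is close to that of AT2G41730, was 7.25 on replicate 3, against 6.80 to 6.83 on the others. AT5G09570 was 9.49 on replicate 4, against 9.25 to 9.29 on the others. None of AT2G41730, AT2G32020 and AT2G03130 had such an array.

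The heat response of AT2G21640 differed between genotypes by -2.23 (double mutant minus wild type, limma adjusted p = 0.00857), and that of NDB4 by -1.62 (limma adjusted p = 0.0383). The call held under 16 of 18 alternatives for AT2G21640 and under only 6 of 18 for NDB4. Heated arrays lay above all untreated arrays of their genotype in 3 of 3 cases in each genotype for AT2G21640. Such a separation held for 17% of all probe sets in the double mutant and 27% in the wild type. For NDB4 they lay below all untreated ones in 3 of 3 cases in the double mutant, as for 21.3% of all probe sets.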

How the results depend on the processing

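For AT2G41730, AT2G32020 and AT2G03130, 265 values were recomputed under the alternatives, leaving aside fits of only the groups compared and the minimum size. Of these, 254 stayed on their side of the threshold or within 1 SD, while 8 lost a call and 3 moved further. None of the 265 was a reversal of a called value. Between heated genotypes AT2G41730 ranged from 0.87 to 1.28 when 1 array was left out (adjusted p up to 0.133) and AT2G32020 from 1.05 to 1.55 (adjusted p up to 0.112), with fewer arrays in each such fit. Over all alternatives the adjusted p ran from 0.00957 to 0.133 for AT2G41730, from 0.00783 to 0.112 for AT2G32020 and from 0.0799 to 0.535 for AT2G03130, which is too dim to be among probe sets at or above the median signal and has no value there. Centring on the 4 measured reference genes shifted the median heat difference of all probe sets in the double mutant by 0.296. It moved heat in the double mutant to 0.63 for AT2G41730 and -1.13 for AT2G03130, the difference of the heat responses to -1.33 for AT2G03130, and LHCB4.1 with heat in the double mutant to 0.062. Quantile normalization turned LHCB4.1 with heat in the wild type to -0.27. The replicate number as a block left both calls between heated genotypes in place.

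Counts of called probe sets moved more. Between heated genotypes (204) the count was 102 with the replicate block, 683 with array weights, 33 with only the groups compared, 88 with a size of at least 1, and 38 to 1061 with 1 array left out. For heat in the double mutant (7725) it was 14310 after centring on reference genes (11908 higher and 2402 lower, against 3140 and 4585) and 2154 with that size. For heat in the wild type (6027) it was 2228 with that size and 3912 to 6528 with 1 array left out. For the difference of the heat responses (17) it was 9 after quantile normalization, 7 among probe sets at or above the median signal, 5 with the replicate block, 34 with array weights and 1 to 66 with 1 array left out. Between untreated genotypes (613) it was 275 after quantile normalization (165 higher and 110 lower, against 507 and 106), 109 with the replicate block, 109 with only the groups compared, 159 with that size and 113 to 862 with 1 array left out. The cause of these moves was not tested, though 2 of the 4 reference genes used for centring themselves fell with heat in the double mutant. For the listed genes and neighbours, 2319 of 2415 alternative values kept their side of the threshold, 67 lost it, 27 gained it and 2 reversed.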
